A study of Mus musculus with 12 samples.

Results

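The genes of the G1 engine of the cell cycle were followed across 12 RNA sequencing libraries of mouse urothelial cells. They were the D cyclins Ccnd1, Ccnd2 and Ccnd3, their kinases Cdk4 and Cdk6, the E cyclins Ccne1 and Ccne2, the kinase Cdk2, and the phosphatase gene Cdc25a. The 9 genes were chosen by name, for their roles, from 23337 rows of a raw count table, with earlier results of these data known. All 9 had a row and all 9 passed the filter on low counts, as did 12406 genes in all.

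The cells were NU1, a line of normal mouse urothelial cells that became immortal by itself during repeated passaging. Each of 4 groups held 3 libraries, 1 from each of experiments 5, 7 and 9, which the labels also give as 3 batches. Proliferating controls carried the hairpin shNT (genotype WT), and proliferating knockdown cells carried the hairpin sh4 (genotype Stag2-KD). Quiescent controls and quiescent knockdown cells carried the same hairpins, shNT and sh4. They were grown to confluence, given 1 µM rosiglitazone and 0.5 µM erlotinib, and labelled differentiation day 7. Rosiglitazone is an agonist of PPAR gamma, a nuclear receptor that promotes urothelial differentiation, and erlotinib inhibits the EGF receptor kinase. The medium of all groups contained EGF at 5 ng/ml, serum and 0.3 mM calcium chloride. Confluence and both drugs went together in every quiescent library, so their effects cannot be told apart. The knockdown rests on a single hairpin sequence in a single cell line, so effects of Stag2 loss and off-target effects of sh4 cannot be told apart either. Stag2 codes for part of cohesin, a ring-shaped complex that holds sister chromatids together and folds chromosomes. The study's title links STAG2 and the DREAM complex to the quiescence of the urothelium. The comparisons therefore ask how G1 genes behave on entry into quiescence and whether less Stag2 changes this.

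In G1, growth factor signals raise the D cyclins, which bind Cdk4 or Cdk6 and phosphorylate the retinoblastoma protein and its relatives. This frees E2F transcription factors to switch on genes for S phase, the E cyclins among them. E cyclins bind Cdk2, which completes the phosphorylation of the pocket proteins and fires replication, and Cdc25A removes inhibitory phosphates from Cdk2. In the resting state, pocket proteins with E2F4 or E2F5 hold many of the same genes off, in part as the DREAM complex. The urothelium of the adult bladder divides rarely and returns to the cycle after injury.

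Stag2 was measured at 139, 145 and 113 CPM in proliferating controls of experiments 5, 7 and 9, and at 33.3, 24.9 and 24.6 CPM in proliferating knockdown cells. CPM is a count scaled to the library's total after TMM normalisation, and the 3 values of a group are always given in that order. Quiescent controls held 128, 126 and 107 CPM of Stag2 and quiescent knockdown cells 9.43, 15.3 and 11.7 CPM. Every library labelled knockdown therefore lay below every control, with a log2 fold change of -2.26 ± 0.19 (SE, adjusted p = 0.00121, edgeR) while proliferating and of -3.32 ± 0.20 (SE, adjusted p = 3.39e-05, edgeR) while quiescent. Library totals ran from 14524429 to 21987539 counts. Of 17 urothelial markers, the keratin genes Krt7, Krt8, Krt18 and Krt19 and the epithelial genes Cdh1 and Epcam were abundant in every library. The basal factor Trp63 was at 0 in all 12 libraries and the uroplakin Upk3a had at most 1 count, so these defining markers were absent or nearly so. The uroplakins Upk1a, Upk1b, Upk2 and Upk3b were also low, at most 3.94, 2.23, 1.45 and 8.91 CPM. Krt5 reached at most 6.60 CPM and Grhl3 at most 2.64. Gata3, Foxa1 and Elf3 stood at or above 26.5, 9.49 and 77.3 CPM in every library. Fibroblast markers summed to at most 2.27 CPM, immune markers to at most 0.762, smooth muscle markers to at most 0.408 and endothelial markers to at most 0.239. Col1a2, Col3a1, Lum and Cd3e were at 0 in every library. Bulk RNA cannot tell fewer cells that express a gene from less RNA of it per cell. The labels do not say whether the 3 experiments began from separate cultures or infections, and p-values measure the spread between these libraries only.

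Promoter sequence from RefSeq (build GRCm38.p6) covered 6 of the 9 genes, in 7 windows of 300 bases that ran from 250 bases before the annotated start to 50 after it. Ccnd1, Ccnd2 and Ccne2 were not among them. The windows were searched on both strands for E2F letters (TTTCCCGC, TTTGGCGC, TTTCGCGC and TTTGCCGC), for the CHR letters TTTGAA, the CRE letters TGACGTCA and the AP-1 letters TGANTCA. The windows of Cdc25a and Cdk2 held the only matches, 1 each. They are shown because E2F and the DREAM complex bind letters of this kind. Each sequence reads 5′ to 3′ on the gene's own strand, with the match in capitals.

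Cdc25a promoter, chr9:109875329-109875628, plus strand: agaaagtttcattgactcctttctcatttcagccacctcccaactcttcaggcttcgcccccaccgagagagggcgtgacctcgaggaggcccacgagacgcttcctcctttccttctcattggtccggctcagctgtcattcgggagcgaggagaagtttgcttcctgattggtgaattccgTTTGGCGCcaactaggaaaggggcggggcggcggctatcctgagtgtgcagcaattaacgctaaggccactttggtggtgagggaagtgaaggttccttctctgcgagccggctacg

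Cdk2 promoter, chr10:128705002-128705301, minus strand: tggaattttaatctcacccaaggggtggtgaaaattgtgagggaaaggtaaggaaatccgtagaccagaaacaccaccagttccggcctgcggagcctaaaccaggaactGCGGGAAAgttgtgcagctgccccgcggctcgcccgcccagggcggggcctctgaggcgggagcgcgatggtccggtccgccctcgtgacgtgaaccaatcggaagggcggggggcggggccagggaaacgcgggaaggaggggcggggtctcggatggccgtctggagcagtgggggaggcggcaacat

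In the Cdc25a window, TTTGGCGC lies on the gene's strand from position -67 to -60, counted from the start site. In the Cdk2 window the capitals GCGGGAAA are TTTCCCGC read from the opposite strand, from position -140 to -133. Of 32851 mouse promoter windows of the same length, 0.514% held TTTGGCGC, 1.07% held TTTCCCGC and 2.26% held any of the 4 E2F forms. TTTCGCGC was in 0.323% of all windows, TTTGCCGC in 0.441%, TTTGAA in 17.9%, TGACGTCA in 1.79% and TGANTCA in 7.81%. A match describes the letters only and does not show that a factor binds there, and a window without a match says nothing about the factor.

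Levels of different genes are compared per kilobase of annotated exon (GENCODE release M21). In proliferating controls Ccnd1 was the most abundant of the 9, at 456 CPM per kb ± 41.0 (SD, n = 3). Cdk4, the D cyclin kinase, came next at 157 ± 12.6 CPM per kb and then Ccnd2 at 40.3 ± 5.69. The ranges of these 3 genes did not overlap. Ccnd3, Cdk2, Cdc25a and Ccne1 followed at 6.77, 5.81, 5.10 and 4.40 CPM per kb, and each overlapped its neighbour in the order. Ccne2 stood at 2.38 ± 0.486 CPM per kb and Cdk6, the other D cyclin kinase, was lowest at 1.52 ± 0.342, with no overlap between them. The mean level per kb of Cdk6 was thus far below that of Cdk4 in the same libraries. In quiescent controls the first 4 genes kept this order by mean, but the ranges of Ccnd1 (131 ± 44.4 CPM per kb) and Cdk4 (118 ± 8.52) overlapped, and Ccnd2 followed at 70.0 ± 21.7. Cdc25a (3.04 ± 0.112) stood above Cdk2 (2.51 ± 0.199) there, with no overlap. Cdk6 and Ccne1, at 0.955 and 0.938 CPM per kb, overlapped, and Ccne2 was last at 0.0856 ± 0.0285. This order depends on the length used. Per kb of the longest transcript, quiescent controls had more Cdk4 (mean 187 CPM per kb) than Ccnd1 (165). By the same measure they had more Ccne1 (1.25) than Cdk6 (1.16). In quiescent knockdown cells Ccne2 was still last by mean, at 0.697 ± 0.0913 CPM per kb, but its range met that of Cdk6 (0.860 ± 0.294).

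**Figure D1:**
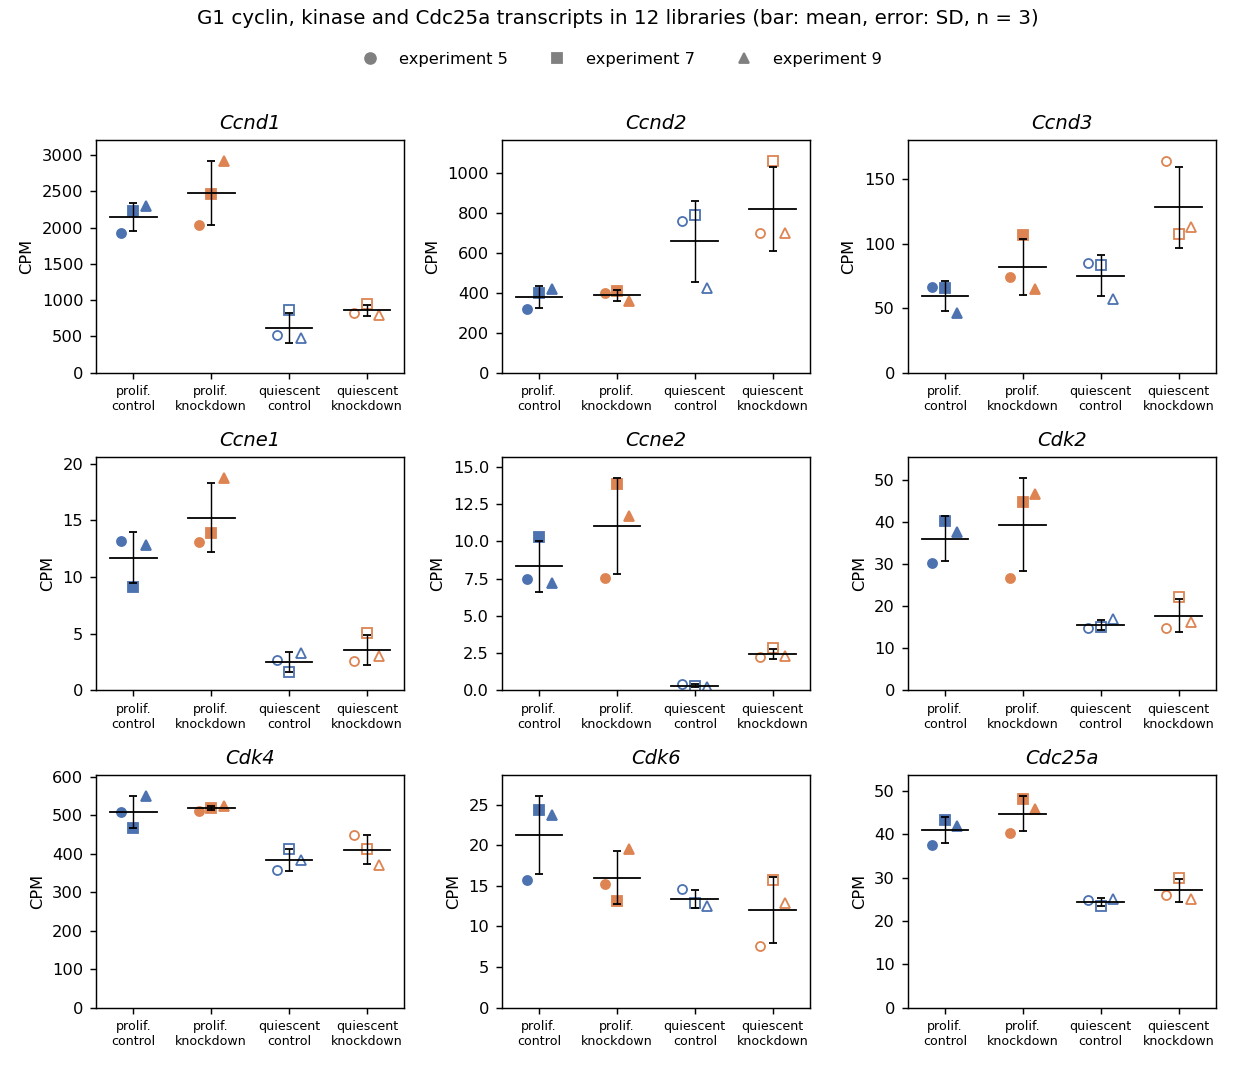
Level of each of the 9 genes in all 12 libraries, as CPM by group, with each axis starting at 0. Points are libraries of experiments 5, 7 and 9 (open where quiescent), and horizontal lines are group means with SD. Mean Ccne2 runs from 0.299 CPM in quiescent controls to 11.0 in proliferating knockdown cells, while mean Ccnd2 is higher in the quiescent groups.

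Entry of control cells into quiescence moved 7 of the 9 genes past an adjusted p of 0.05, 6 of them downward and Ccnd2 upward. Across all 12406 tested genes, 20.0% passed in the same comparison, 11.7% downward and 8.33% upward. The median log2 fold change of the 9 genes was -0.75, against 0.0047 for all tested genes. Ranges of the 2 groups did not overlap for 8 of the 9 genes, 7 lower and 1 higher. That separation occurred in 35.6% of all tested genes, 18.5% lower and 17.1% higher.

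The 3 D cyclins went different ways. Ccnd1, the D cyclin most closely tied to growth factor signalling, was read at 1930.2, 2223 and 2294 CPM in proliferating controls and at 520.2, 857 and 474 CPM in quiescent controls. All 3 quiescent libraries were lower, and the quiescent mean was 28.7% of the proliferating one. The log2 fold change was -1.80 ± 0.23 (SE, adjusted p = 0.000427, edgeR). Ccnd2 was read at 318, 399 and 419.7 CPM in proliferating controls and at 763, 790.2 and 424 CPM in quiescent controls. Its log2 fold change was 0.80 ± 0.24 (SE, adjusted p = 0.0386, edgeR), but the within-experiment differences of log2 CPM were 1.26, 0.99 and 0.015 in experiments 5, 7 and 9, so experiment 9 held almost no rise. The call for Ccnd2 was lost in 6 of 12 fits that each left out 1 library. These were the fits without any of the 3 proliferating controls (adjusted p of 0.0891, 0.0922 and 0.0699 without experiments 5, 7 and 9), without the proliferating knockdown library of experiment 7 (0.0527), and without the quiescent controls of experiments 5 (0.12) and 7 (0.111). The call was also lost with only the 6 control libraries in the fit (adjusted p = 0.0793). Ccnd3 measured 66.4, 65.7 and 46.2 CPM in proliferating and 84.9, 83.7 and 56.9 CPM in quiescent controls. Those ranges overlapped, and its log2 fold change of 0.34 ± 0.24 (SE, adjusted p = 0.349, edgeR) did not pass.

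The mix of D cyclins also differed between the states. Ccnd1 made up 90.7% ± 0.194 (SD, n = 3) of the summed D cyclin level per kb in proliferating controls and 62.4% ± 6.47 in quiescent controls. The share of Ccnd2 was 7.97% ± 0.423 in proliferating controls and 33.5% ± 5.94 in quiescent controls, and that of Ccnd3 was 1.36% ± 0.354 and 4.18% ± 0.678. The summed level was 503 ± 45.8 CPM per kb in proliferating controls and 209.7 ± 62.0 in quiescent controls. Knockdown cells had Ccnd1 shares of 91.0% ± 1.92 and 64.3% ± 2.29 in the proliferating and quiescent state, with ranges that overlapped those of the controls. With the longest transcript in place of all exons, the Ccnd1 share was 88.4% in proliferating controls and 57.1% in quiescent controls.

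**Figure D2:**
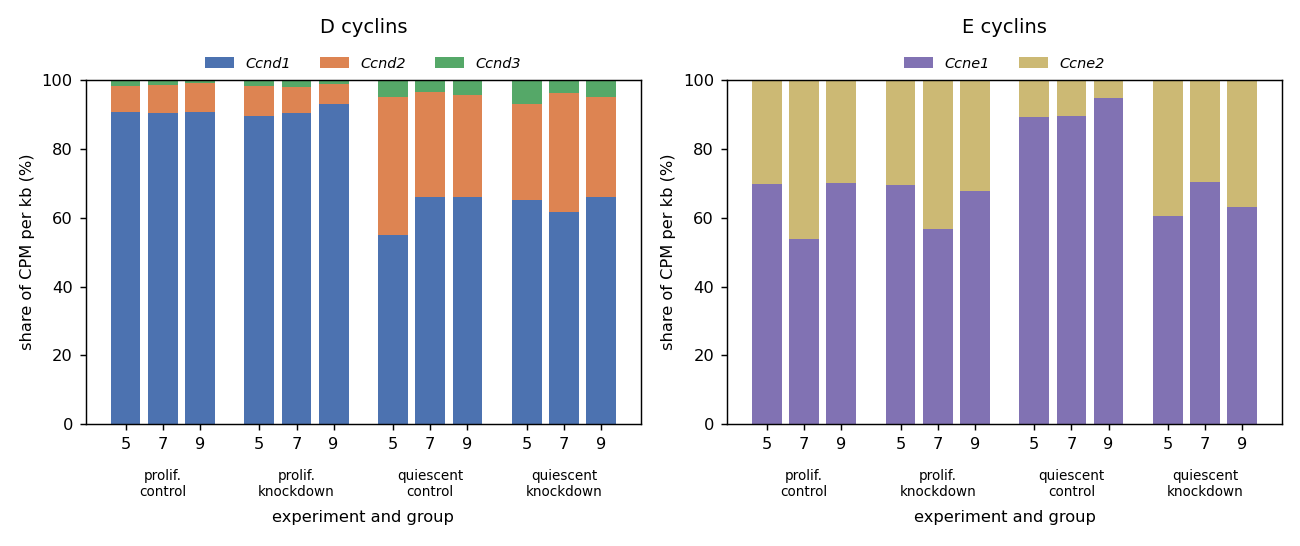
Share of each D cyclin in the summed D cyclin level per kb (percent) and of each E cyclin in the summed E cyclin level. Each stacked bar is 1 library, labelled by experiment and group, and the mean share of Ccne2 is 8.82% in quiescent controls against 35.3% to 35.4% in the other groups.

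The E cyclins had the most negative estimates of the 9. Ccne1 was read at 13.2, 9.12 and 12.8 CPM in proliferating controls and at 2.62, 1.59 and 3.28 CPM in quiescent controls, a log2 fold change of -2.23 ± 0.33 (SE, adjusted p = 0.00119, edgeR). Ccne2 was read at 7.46, 10.3 and 7.22 CPM in proliferating controls and at 0.414, 0.245 and 0.239 CPM in quiescent controls. In raw counts, that is 133, 178 and 127 against 6, 4 and 4, and no library of one group came near the other. The quiescent mean of Ccne2 was 3.60% of the proliferating mean, with a log2 fold change of -4.78 ± 0.35 (SE, adjusted p = 2.85e-05, edgeR). By fold change Ccne2 ranked 52 of 12406 from the most negative. Since Ccne2 lay under 10 counts in every quiescent control, it passed the filter on low counts through the other groups. Within the E cyclins, the share of Ccne2 was 35.4% ± 9.31 (SD, n = 3) in proliferating controls and 8.82% ± 3.10 in quiescent controls.

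Among the kinases, Cdk2 had the largest fall by estimate. It was read at 30.2, 40.3 and 37.8 CPM in proliferating controls and at 14.7, 15.1 and 17.0 CPM in quiescent controls, a log2 fold change of -1.21 ± 0.23 (SE, adjusted p = 0.00385, edgeR). Cdk4 went from 509.6, 468 and 550.1 CPM to 357, 412 and 384 CPM. Every quiescent control was below every proliferating one, and the log2 fold change of Cdk4 was small at -0.41 ± 0.12 (SE, adjusted p = 0.0307, edgeR). Without the proliferating control of experiment 9 its adjusted p was 0.104. Without the quiescent control of experiment 5 it was 0.117, and without that of experiment 9 it was 0.0794. The call for Cdk4 was also lost with no filter on low counts (adjusted p = 0.0553) and with only the control libraries (0.0952). Cdk6 measured 15.8, 24.4 and 23.7 CPM in proliferating and 14.6, 12.9 and 12.5 CPM in quiescent controls. These ranges did not overlap, but the log2 fold change of -0.67 ± 0.27 (SE, adjusted p = 0.0985, edgeR) did not pass. It passed without the proliferating control of experiment 5 (-0.85, adjusted p = 0.0458) and by DESeq2 with the replicate block (-0.63, adjusted p = 0.0362), though not by DESeq2 without it (0.0707) or by edgeR with it (0.0597). Cdc25a, the phosphatase gene, was read at 37.5, 43.3 and 41.9 CPM in proliferating and at 24.8, 23.4 and 25.0 CPM in quiescent controls. Its replicates were close in both groups, and its log2 fold change was -0.75 ± 0.12 (SE, adjusted p = 0.00166, edgeR).

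**Figure D3:**
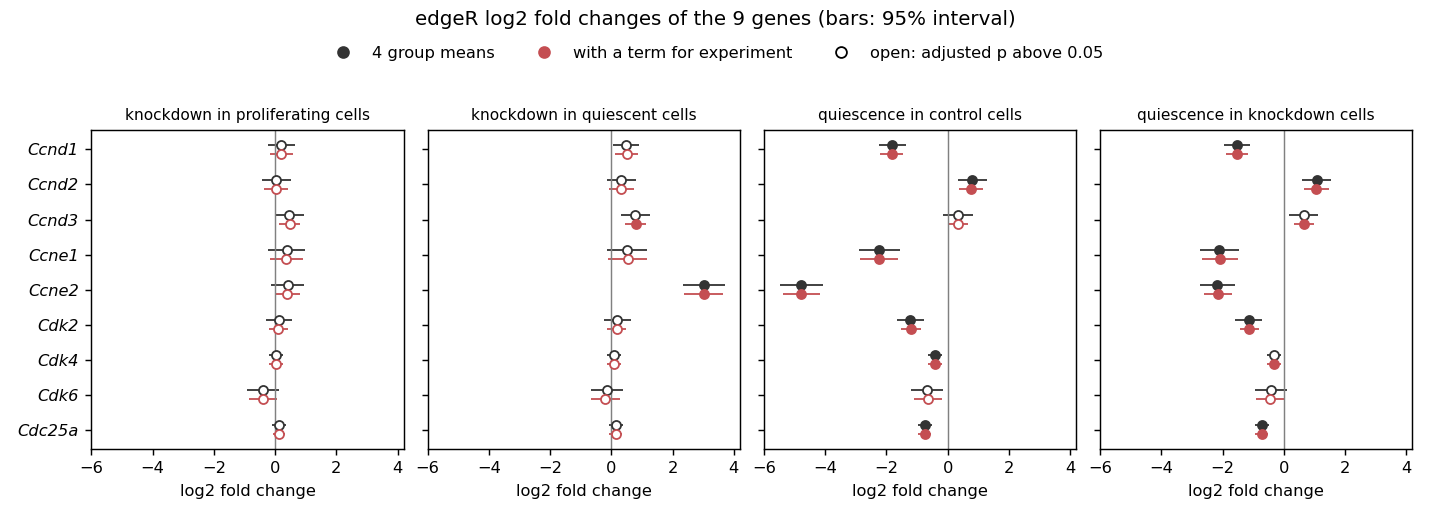
Log2 fold change of each of the 9 genes in the knockdown and quiescence comparisons, from edgeR fits to all 12 libraries without (dark) and with (red) a term for experiment. Points are estimates, bars are unadjusted 95% intervals and filled points passed an adjusted p of 0.05, with Ccne2 at -4.78 for quiescence in controls, -2.17 for quiescence in knockdown cells and 3.01 for knockdown in quiescent cells.

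Most of these genes also fell in knockdown cells on entry into quiescence. Of the 9, 6 passed, 5 downward and Ccnd2 upward, against 18.4% of all tested genes, 10.8% downward and 7.59% upward. With the experiment as a replicate block 8 passed, 2 upward and 6 downward, where 33.0% of all tested genes passed, 15.9% upward and 17.2% downward. The groups did not overlap for 8 of the 9 genes, 2 higher and 6 lower, as was the case for 37.2% of tested genes, 18.1% higher and 19.1% lower. Ccnd1 went from 2039, 2462 and 2919 CPM in proliferating knockdown cells to 823, 949 and 797 CPM in quiescent ones, a log2 fold change of -1.53 ± 0.22 (SE, adjusted p = 0.00139, edgeR). Ccnd2 rose from 399, 409 and 358 CPM to 701, 1064 and 702 CPM, a log2 fold change of 1.08 ± 0.24 (SE, adjusted p = 0.0109, edgeR), and was higher in each experiment. Its call held in 12 of 12 fits that left out 1 library. Ccnd3 measured 74.3, 107 and 65.1 CPM and then 164, 108 and 113 CPM, with no overlap. The fold change of 0.65 ± 0.24 (SE, adjusted p = 0.0866, edgeR) missed the threshold without the block and passed with it (0.66, adjusted p = 0.0144). Without the proliferating knockdown library of experiment 7 it passed with no block (0.88, adjusted p = 0.0499).

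Ccne1 fell in knockdown cells from 13.1, 13.9 and 18.7 CPM to 2.58, 5.07 and 2.99 CPM, a log2 fold change of -2.10 ± 0.33 (SE, adjusted p = 0.0019, edgeR). Ccne2 fell from 7.52, 13.8 and 11.7 CPM to 2.22, 2.80 and 2.29 CPM, a log2 fold change of -2.17 ± 0.29 (SE, adjusted p = 0.000967, edgeR). The quiescent mean of Ccne2 was 22.1% of the proliferating mean in knockdown cells, against 3.60% in controls, and that of Ccne1 was 23.3% against 21.3%. Cdk2 went from 26.7, 44.8 and 46.7 CPM to 14.9, 22.1 and 16.2 CPM (log2 fold change -1.15 ± 0.22 SE, adjusted p = 0.0054, edgeR). Cdc25a went from 40.2, 48.1 and 45.9 CPM to 25.9, 30.0 and 25.1 CPM, a log2 fold change of -0.73 ± 0.12 (SE, adjusted p = 0.00223, edgeR). Cdk4 was read at 512, 519 and 523 CPM and then at 449, 412 and 372 CPM. Its change of -0.33 ± 0.12 (SE, adjusted p = 0.0667, edgeR) missed the threshold, and with the replicate block it passed (-0.34, adjusted p = 0.0471). Cdk6 measured 15.3, 13.2 and 19.6 CPM and 7.57, 15.7 and 12.8 CPM, which overlapped (log2 fold change -0.41 ± 0.27 SE, adjusted p = 0.307, edgeR).

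Knockdown against control within quiescent cells moved 1 of the 9 genes past the threshold, Ccne2, which rose. Of all tested genes, 0.435% passed in this comparison and 0.153% passed upward. With the replicate block, which fits each experiment's own level, 2 of the 9 passed, Ccne2 and Ccnd3, both upward, and 3.55% of all tested genes passed, 1.59% upward. Groups did not overlap for 3 of the 9 genes, all higher in knockdown cells, where 10.2% of tested genes did so in that direction. Quiescent knockdown libraries also had a larger sum over the 17 listed urothelial markers, 21487 to 23413 CPM against 12382 to 19415 in quiescent controls. Keratin genes dominate this sum. Over the 12 libraries Krt8, Krt18, Krt19 and Krt7 reached 9042, 6508, 3922 and 3257 CPM, and no uroplakin passed 8.91 CPM. The part of this difference in these results was not tested.

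Ccne2 was read at 0.414, 0.245 and 0.239 CPM in quiescent controls of experiments 5, 7 and 9, and at 2.22, 2.80 and 2.29 CPM in quiescent knockdown cells. The raw counts were 6, 4 and 4, which sum to 14, against 49, 47 and 39, which sum to 135. The lowest knockdown library stood far above the highest control. The ratio of the means was 8.15, and the log2 fold change was 3.01 ± 0.35 (SE, adjusted p = 0.0053, edgeR). Within experiments the difference of log2 CPM was 2.14, 3.02 and 2.76, computed with a prior count of 2 that draws in so low a control level. By fold change Ccne2 ranked 21 of 12406 from the most positive. The call held in all 12 fits that left out 1 library, with log2 fold changes from 2.87 to 3.29. The knockdown level of 2.44 CPM ± 0.319 (SD, n = 3) was still below that of proliferating controls, 8.32 CPM ± 1.70 (SD, n = 3). Since this comparison and quiescence in controls share the 3 quiescent control libraries, both rest on the same 14 counts. Exons of Ccne2 (chr4:11191351-11204779, plus strand, GRCm38) share 609 bases with Ints8, an integrator subunit gene on the opposite strand. Ints8 had a log2 fold change of 0.078 ± 0.17 (SE, adjusted p = 0.912, edgeR). Whether the counting used strand is not given in the sources used here.

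Some genes of S phase and mitosis were read beside Ccne2, of which Mki67, Ccna2, Ccnb1, Cdk1, Mcm2, Mcm3 and Tk1 were picked after their values were seen. Within experiments 5, 7 and 9 the difference of log2 CPM between quiescent knockdown and quiescent control was 3.07, 2.41 and 1.14 for the proliferation marker Mki67, and 1.09, 2.03 and 0.17 for Ccna2, the S phase cyclin. It was 1.47, 2.02 and -0.42 for the mitotic cyclin Ccnb1 and 0.48, 1.81 and 0.14 for its kinase gene Cdk1. For Ccne2 it was 2.14, 3.02 and 2.76, so Mki67 differed by more in experiment 5 and by less in experiments 7 and 9. Mki67 had 8, 102 and 133 counts in quiescent controls and 121, 563 and 300 in quiescent knockdown cells. Its difference in experiment 5 thus rests on a control with 8 counts. The 3 differences lay close together for some genes of S phase. They were 1.51, 1.15 and 1.55 for Rrm2, a ribonucleotide reductase subunit, and 0.57, 0.66 and 0.61 for Mcm2, a subunit of the replicative helicase. For others they lay further apart, at 1.45, 2.30 and 0.32 for Tk1 and 0.49, 1.27 and 0.38 for Mcm3. The medians over the 22 listed E2F target genes of S phase were 0.53, 0.62 and 0.32. None of Mki67, Ccna2, Ccnb1 and Cdk1 was called by edgeR without the block. Mki67 had a log2 fold change of 1.92 ± 0.72 (SE, adjusted p = 0.312, edgeR). The DESeq2 Wald test with the block called Mki67 (adjusted p = 0.036). It also called 1 of 5 tested genes of the S and M phase list, where 8.21% of all tested genes passed. The part of cycling cells in the Ccne2 result was not tested.

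Ccne1, the other E cyclin, was not called. Quiescent controls had 2.62, 1.59 and 3.28 CPM and quiescent knockdown cells 2.58, 5.07 and 2.99 CPM, so only experiment 7 stood above its control by a wide margin. The differences of log2 CPM for Ccne1 were -0.020, 1.60 and -0.13, and the log2 fold change was 0.50 ± 0.33 (SE, adjusted p = 0.62, edgeR), with an unadjusted 95% interval from -0.15 to 1.15. Ccne2 made up 35.3% ± 5.13 (SD, n = 3) of the summed E cyclin level in quiescent knockdown cells, against 8.82% ± 3.10 in quiescent controls and 35.3% ± 6.84 in proliferating knockdown cells. The summed E cyclin level was 2.03 ± 0.592 CPM per kb in quiescent knockdown cells and 1.02 ± 0.324 in quiescent controls.

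Among the D cyclins, Ccnd3 was read at 84.9, 83.7 and 56.9 CPM in quiescent controls and at 164, 108 and 113 CPM in quiescent knockdown cells. All 3 knockdown libraries exceeded all 3 controls, by 1.71-fold in the means. The log2 fold change was 0.77 ± 0.24 (SE, adjusted p = 0.217, edgeR), which missed the threshold. With the replicate block it was 0.79 (SE 0.17, edgeR adjusted p = 0.0343) and passed. The blocked call held in 5 of 12 fits without 1 library and was lost in 7. The 7 left out the proliferating control of experiment 7, the proliferating knockdown library of experiment 9, any of the 3 quiescent controls, or the quiescent knockdown library of experiment 5 or 9. The blocked fold change ran from 0.64 to 1.01 over the 12 fits and the adjusted p from 0.00643 to 0.14. Ccnd1 was 520.2, 857 and 474 CPM in quiescent controls and 823, 949 and 797 CPM in quiescent knockdown cells, higher in each experiment with ranges that overlapped. Its log2 fold change of 0.47 ± 0.22 (SE, adjusted p = 0.429, edgeR) was not called, with the block or without it. Ccnd2, at 763, 790.2 and 424 CPM and 701, 1064 and 702 CPM, was lower in experiment 5 and higher in experiments 7 and 9 (log2 fold change 0.32 ± 0.24 SE, adjusted p = 0.675, edgeR).

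The kinase genes and Cdc25a were not called in this comparison. Cdk2 had 14.7, 15.1 and 17.0 CPM in quiescent controls and 14.9, 22.1 and 16.2 CPM in quiescent knockdown cells (log2 fold change 0.19 ± 0.22 SE, adjusted p = 0.817, edgeR). Cdk4 had 357, 412 and 384 CPM and 449, 412 and 372 CPM, a log2 fold change of 0.10 ± 0.12 (SE, adjusted p = 0.815, edgeR). Cdk6 had 14.6, 12.9 and 12.5 CPM and 7.57, 15.7 and 12.8 CPM, with experiment 5 lower and the other 2 slightly higher (log2 fold change -0.15 ± 0.27 SE, adjusted p = 0.882, edgeR). Cdc25a had 24.8, 23.4 and 25.0 CPM and 25.9, 30.0 and 25.1 CPM. The highest control (25.0 CPM) and the lowest knockdown library (25.1 CPM) all but met, and its log2 fold change was 0.15 ± 0.12 (SE, adjusted p = 0.701, edgeR). The unadjusted 95% interval of the log2 fold change was -0.25 to 0.63 for Cdk2, -0.13 to 0.32 for Cdk4, -0.68 to 0.37 for Cdk6 and -0.085 to 0.38 for Cdc25a, all of which include 0.

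**Figure D4:**
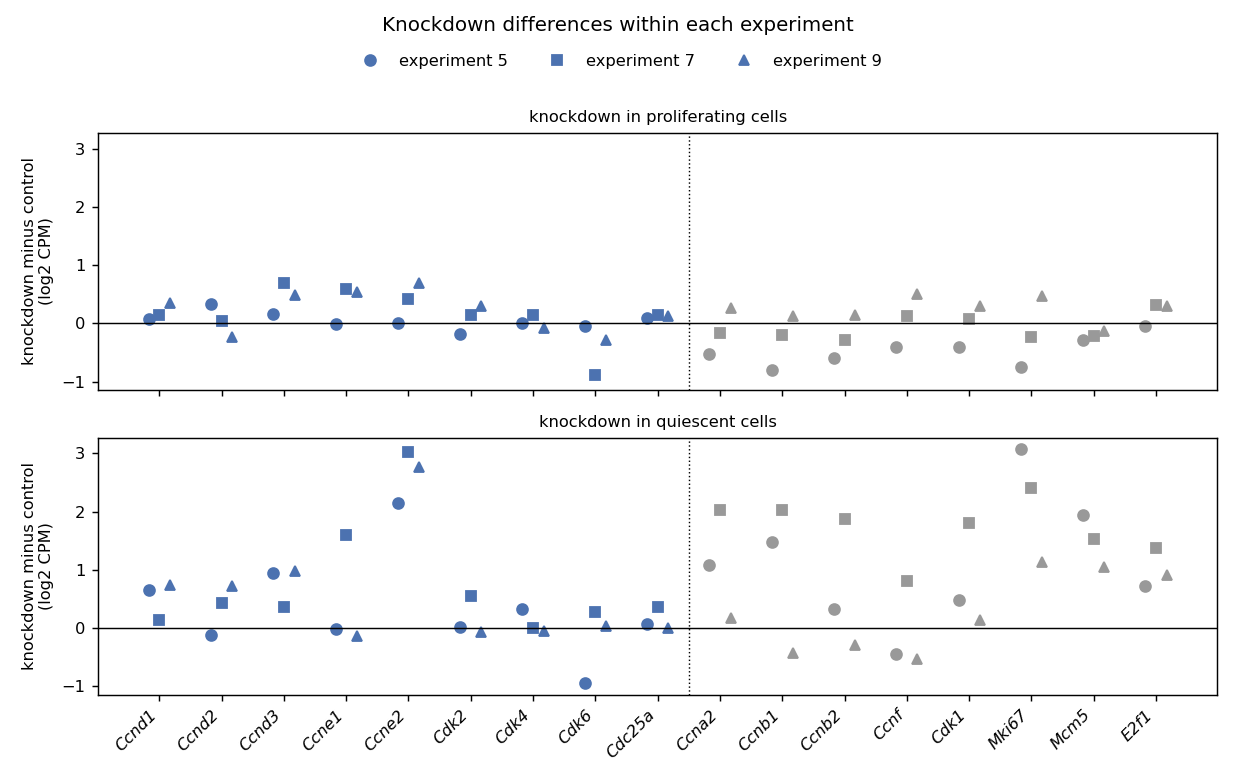
Knockdown minus control in log2 CPM (prior count 2) within experiments 5, 7 and 9, for the 9 G1 genes (blue) and 8 other cell-cycle genes (grey), in proliferating (upper) and quiescent (lower) cells. Each point is 1 experiment and the horizontal line marks no difference, and the 3 quiescent points of Ccne2 lie at 2.14, 3.02 and 2.76.

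In proliferating cells, Stag2 knockdown moved 0 of the 9 genes past the threshold by edgeR, with the replicate block or without it, and by DESeq2. At an unadjusted p under 0.05 there were 0 by edgeR, 1 with the block and 0 by DESeq2. Of all 12406 tested genes, 228 had such a p by edgeR and 645 with the block. The adjusted threshold was passed by 0.0242% of all tested genes by edgeR, the same share with the block, and 0.0967% by DESeq2. The ranges of the 2 groups overlapped for all 9 genes, and 5.31% of all tested genes did not overlap. Fold changes of the 9 ran from -0.41 for Cdk6 to 0.46 for Ccnd3 on the log2 scale.

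Ccne2 was read at 7.46, 10.3 and 7.22 CPM in proliferating controls and at 7.52, 13.8 and 11.7 CPM in proliferating knockdown cells. Experiment 5 held no difference and experiments 7 and 9 had more in knockdown cells. Its log2 fold change was 0.41 ± 0.28 (SE, adjusted p = 0.9998, edgeR), with an unadjusted 95% interval from -0.13 to 0.94. Ccne1 measured 13.2, 9.12 and 12.8 CPM and 13.1, 13.9 and 18.7 CPM (log2 fold change 0.38, SE 0.31). Ccnd1 measured 1930.2, 2223 and 2294 CPM and 2039, 2462 and 2919 CPM, higher in each experiment with ranges that overlapped (log2 fold change 0.20, SE 0.22). Ccnd3 measured 66.4, 65.7 and 46.2 CPM and 74.3, 107 and 65.1 CPM, a log2 fold change of 0.46 with an SE of 0.24. Ccnd2 had means of 379 CPM ± 53.5 (SD, n = 3) and 389 CPM ± 27.1 (SD, n = 3). Cdk4 was among the closest, with means of 509 CPM ± 41.0 (SD, n = 3) and 518 CPM ± 5.43 (SD, n = 3) and a 95% interval of the log2 fold change from -0.20 to 0.25. Cdk2 had means of 36.1 CPM ± 5.26 (SD, n = 3) and 39.4 CPM ± 11.0 (SD, n = 3). Cdk6 measured 15.8, 24.4 and 23.7 CPM and 15.3, 13.2 and 19.6 CPM, lower in knockdown cells in all 3 experiments with ranges that overlapped (log2 fold change -0.41, SE 0.27). Cdc25a had means of 40.9 CPM ± 3.03 (SD, n = 3) and 44.7 CPM ± 4.08 (SD, n = 3).

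The difference between the knockdown effects in quiescent and proliferating cells was tested as an interaction. Among the 9 it was largest for Ccne2, at 2.60 on the log2 scale (SE 0.44), and within experiments it was 2.13, 2.59 and 2.07. For Ccne2 the edgeR adjusted p was 0.637 without and 0.189 with the replicate block. The DESeq2 Wald test called it, with an adjusted p of 0.0431, and of 0.00328 with the block. In edgeR 0 of the 9 genes and 0% of all tested genes passed. Without the block 1 of the 9 had an unadjusted p under 0.05, as did 219 of all 12406 tested genes. By DESeq2, 1 of the 9 passed, against 0.0484% of all tested genes, or 0.234% with the block. The other 8 genes had interaction estimates from 0.020 (Cdc25a) to 0.31 (Ccnd3), none called. Mean Stag2 in knockdown cells was 20.8% of the control mean while proliferating and 10.1% while quiescent. The interaction of Stag2 itself was -1.05 (SE 0.26), called only by DESeq2 with the block (adjusted p = 0.0253). Cell state and depth of knockdown therefore cannot be told apart in this comparison.

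Other genes of the pathway are given by the lists used to describe it. Beside their counts in quiescent controls stand the shares of all tested genes called by edgeR, 11.7% lower and 8.33% higher, and nothing particular to a list is read from its count. In quiescent controls the S and M phase cyclin and kinase list had 5 of 5 tested genes lowered, and its median log2 fold change was -4.53. Ccna2 and Ccnb1 had log2 fold changes of -4.99 and -4.99. Of 22 E2F target genes of S phase, 22 fell, with a median of -2.81, led by Tk1 (thymidine kinase, -4.75) and Mcm5 (a subunit of the replicative helicase, -4.64). Of 10 E2F and DP factor genes 6 fell, among them E2f2 and E2f8 (an atypical repressor E2F, -4.80), and 0 rose. E2f2, an activator, had 91, 88 and 49 counts in proliferating and 1, 2 and 0 in quiescent controls. Median changes of all tested genes were near 0 in each comparison, between -0.0022 and 0.016.

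Regulators of the cyclin-dependent kinases moved both ways in quiescent controls. Of 7 CDK inhibitor genes, Cdkn1a (p21, 1.195 log2) and Cdkn1c (p57, 1.49) rose and Cdkn2c (p18, -2.79) fell. Of 3 pocket protein genes, Rbl1 (p107, -2.17) fell and the other 2, Rb1 and Rbl2 (p130), were not called without the replicate block. With the block 1 pocket protein gene was called higher, where 16.8% of all tested genes were. Within experiments 5, 7 and 9 the difference of log2 CPM was 0.16, 0.52 and 0.74 for Rbl2 and -0.090, 0.053 and 0.37 for Rb1. Among 7 genes of the CDK-activating kinase and of the kinases and phosphatases that set inhibitory phosphates, Wee1 rose (1.46) and 3 fell, including Cdc25c (-4.79) and Cdc25b (-2.09). The estimate for their paralog Cdc25a was -0.75. Of 12 genes that act in cyclin turnover, 3 fell, including Skp2 (-2.23) and Cks1b (-2.14), partners in the degradation of p27, and Ambra1 (0.45), which targets D cyclins for degradation, rose. Its call was lost without the proliferating control of experiment 7 (adjusted p = 0.0748) and without the quiescent control of experiment 5 (0.0508). Of 17 output genes of EGFR-MAPK signalling, 10 fell and 0 rose, with a median of -1.14, led by Fosl1 (-3.53) and Etv4 (-3.31). With the replicate block 13 of these genes and 9 of the E2F and DP factor genes were called lower, and 4 of the turnover genes higher. Of all tested genes, 18.5% were called lower with the block and 16.8% higher.

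Cyclin and kinase genes outside G1, S and M phase formed the last lists. Of 12 tested genes among 14 other cyclins, 0 were called by edgeR in quiescent controls, 1 with the replicate block and 1 by DESeq2 (2 with the block). In edgeR 2 of them had an unadjusted p under 0.05, as did 4314 of all 12406 tested genes. Of 12 other cyclin-dependent kinases 1 was called by edgeR, Cdk18, which rose (0.76), and 3 with the block. Of all tested genes 20.0% were called by edgeR, 35.3% with the block, 25.9% by DESeq2 and 37.4% by DESeq2 with the block, and the difference of these lists from that share was not tested. That call was lost without the proliferating control of experiment 7 (adjusted p = 0.0593) and without the quiescent control of experiment 5 (0.0607). The medians of these lists were 0.059 and -0.079.

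For Stag2 knockdown in quiescent cells, genes of these lists that passed by edgeR are given, first those called without the replicate block. Mcm5 rose (3.24, 6.61 and 5.55 CPM in quiescent controls, 12.7, 19.3 and 11.7 CPM in knockdown cells, log2 fold change 1.497, SE 0.27, adjusted p = 0.0451, edgeR). Leaving out any library but the proliferating knockdown library of experiment 5 lost that call, with adjusted p up to 0.155. Areg, which encodes the EGF receptor ligand amphiregulin, fell (log2 fold change -2.03 ± 0.35 SE, adjusted p = 0.036, edgeR), and its call was lost in 7 of 12 such fits, with adjusted p up to 0.199. With the block, E2f1 (an activator E2F, 0.99, adjusted p = 0.0206), E2f8 (1.57, 0.0322) and Rrm2 (1.39, 0.00928), rose. E2f2 was also called upward with the block, with 1, 2 and 0 counts in quiescent controls and 9, 12 and 4 in knockdown cells. Mcm3 (0.74, adjusted p = 0.0485) and Mcm6 (0.54, 0.0318), 2 further helicase subunits, rose with the block. Cdkn2b, the inhibitor p15 of Cdk4 and Cdk6, fell with the block (-0.77, 0.029), as did Cdk9 (-0.45, 0.041), the kinase of transcription elongation. None of the genes from E2f1 to Cdk9 was called by edgeR without the block, with all libraries or in the 12 fits that left out 1. Of the 22 E2F target genes, 20 had a positive fold change, with a median of 0.51, and 1 was called without the block and 4 with it, against 0.435% and 3.55% of all tested genes. DESeq2 called 3 of the 22, and 9 with the block, against 3.14% and 8.21% of all tested genes. The 9 G1 genes had a median of 0.32, with 8 positive, and 8 were also positive for knockdown in proliferating cells. Of all 12406 tested genes, 6508 were positive in quiescent cells and 6143 in proliferating cells. The S and M phase list had a median of 0.76, and by experiment its medians were 0.48, 1.88 and -0.29. In proliferating cells 0 genes of any of these lists were called by edgeR or by DESeq2, with or without the block. At an unadjusted p under 0.05 edgeR without the block had 1 gene in each of the turnover, E2F target and EGFR-MAPK lists. Of all 12406 tested genes, 228 had such a p.

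The 9 genes varied together to different degrees over the 12 libraries, which share the large difference between the 2 states, so the coefficients describe the pattern only. Cdk2 and Cdc25a had a Pearson r of 0.978 in log2 CPM, Ccne1 and Cdc25a 0.960, and Ccnd1 and Cdc25a 0.951. Ccnd2 ran against most of them, with r from -0.77 (Ccne1) to 0.62 (Ccnd3), and Ccnd3 and Cdk6 had an r of -0.77. Among all other tested genes whose log2 CPM averaged 2 or more, Ccnd1 was most like Rrm2 (0.989), Suv39h1 (0.987) and Slbp (0.984). Ccne1 was most like Cdca5 (0.974), Cdk1 (0.971) and Fam111a (0.968). Ccne2 was most like Tcf19 (0.985), Il24 (0.980) and Crybb1 (0.968). Cdk2 was closest to Vasp (0.989), C330027C09Rik (0.985) and Tyms (0.983), and Cdc25a to Vasp (0.981), Arhgap19 (0.980) and Mcm3 (0.980). Ccnd2 was closest to Itpr1 (0.961), Zgpat (0.960) and Bbs1 (0.933), and Ccnd3 to Cxxc5 (0.979), Echdc2 (0.967) and Kctd6 (0.944). Cdk4 was closest to Alg9 (0.959), Nxn (0.954) and Tgds (0.952), and Cdk6 to Cdk12 (0.960), Socs4 (0.957) and Sik2 (0.955).

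Positions of the other genes on GRCm38 (GENCODE M21) are as follows. Ccnd1 lies at chr7:144929931-144939925 on the minus strand and shares 1100 exon bases with LTO1, named Oraov1 in the count table, on the opposite strand. Ccnd2 lies at chr6:127125162-127152193 (minus) and shares 372 exon bases with Gm43126 and 368 with 9330179D12Rik. Ccnd3 lies at chr17:47505051-47599691 (plus) and shares 361 with Bysl. Ccne1 lies at chr7:38097984-38107534 (minus). Cdk4 lies at chr10:127063534-127067920 (plus) and shares 641 exon bases with Tspan31 on the opposite strand. Cdk2 lies at chr10:128697939-128705031 (minus) and shares 34 exon bases with Pmel. Cdk6 lies at chr5:3341485-3531008 (plus) and shares 368 with Gm17590. All of these partners are on the opposite strand. Cdc25a lies at chr9:109875579-109893895 (plus). In quiescent against proliferating controls, the log2 fold change was -1.80 for Ccnd1 and -0.14 for Oraov1. It was -0.41 for Cdk4 and 0.22 for Tspan31.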

How the data were processed

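Polyadenylated RNA of NU1 cells was sequenced in 12 libraries made with a strand-marking kit from RNA that held ERCC spike-ins, per the labels' protocols. The authors deposited raw counts per gene symbol, whole numbers with no normalization. The submitters' processing notes name Bowtie, TopHat, HTSeq, DESeq2 and the build mm10, without versions or order. Which annotation was counted, and whether strand was used, is not given in the sources used here, so reads of overlapping genes may not be separated. With 0 ERCC rows in the table, spike-ins could not set the scale, and a change in total RNA per cell would not be seen.

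The analysis used R 4.3.3 and edgeR 4.0.16. The function filterByExpr (minimum count 10) kept 12406 genes, and TMM set the scaling. The 4 group means were fitted to all libraries with glmQLFit and tested with glmQLFTest. The Benjamini-Hochberg adjustment ran over every tested gene, and an adjusted p of at most 0.05 counted as a call. SE is the log2 fold change divided by the square root of its F statistic. Log2 CPM used a prior count of 2. Totals of 14524429 to 21987539 counts limit the precision of genes with few counts, and PCR reads are not independent molecules. No 2 libraries of a group held identical values. The fitting was tested on simulated counts.

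The experiment number pairs the libraries: it is shared by 1 library of each group and coincides with the batch in the labels. Deviations from the group means had a mean correlation of 0.526 over 18 pairs with the same number (0.225 to 0.789) and of -0.26 over 36 pairs with different numbers. Because the deviations within a group sum to 0, the second value largely follows from the first and is no separate evidence of pairing. The fit with the experiment as a replicate block is given where it changes a call. Other alternatives were DESeq2 1.42.0, median-of-ratios size factors, no low-count filter, a minimum mean count of 50, fits to a comparison's own libraries and leaving out each library. Leaving out libraries from the blocked fit was chosen after seeing the data.

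Genes were named by rule: Stag2, the 9 genes, their 3 most similar genes by Pearson r, and, per list, genes called in a knockdown comparison or the 2 with the largest change each way on quiescence in controls. Neighbours that overlap exons, Rb1 and Rbl2, and Mki67, Ccna2, Ccnb1, Cdk1, Mcm2, Mcm3 and Tk1 beside Ccne2 were named in addition, after their values were seen. The 9 genes and the lists were chosen with earlier results of these data known. Promoters came from RefSeq and positions from GENCODE M21. Protein sequences were not used here.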

Additional observations from a re-analysis of the deposited data

Results flagged for a closer look

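The effect of Stag2 knockdown on Ccne2, the gene of cyclin E2, differed between the states by 2.60 on the log2 scale, quiescent minus proliferating. Ccne2 stands here because its 2 knockdown effects differed in a test of that difference itself, though only with 1 of the 2 tools. The DESeq2 Wald test gave an adjusted p of 0.0431, and 0.00328 with the replicate block. The edgeR test gave an adjusted p of 0.637, and 0.189 with the block. The difference was positive in 3 of 3 experiments, at 2.13, 2.59 and 2.07 in log2 CPM. The 3 quiescent controls hold 14 counts of Ccne2 in all, which limits the precision of this value. Mean Stag2 in knockdown cells was 20.8% of the control mean while proliferating and 10.1% while quiescent, so state and knockdown depth cannot be told apart.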

How the results depend on the processing

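Of the 9 genes, knockdown in quiescent cells called 1, and 2 with the replicate block, with DESeq2 and the block, and in 1 to 2 with the block and 1 library left out. In the interaction 0 were called by edgeR and 1 by DESeq2, with or without the block. Among all tested genes, the number called for knockdown in proliferating cells was 3. It was 12 by DESeq2, 20 by DESeq2 with the block, 1 with only the libraries of the comparison and 1 to 3 without 1 library. For knockdown in quiescent cells the number was 54, and it was 440 with the replicate block, 390 by DESeq2 and 1019 by DESeq2 with the block. Without 1 library it was 5 to 64, lowest without the quiescent knockdown library of experiment 9, and with the block 53 to 581. For quiescence in control cells it was 2481, with 4374 under the replicate block, 4645 by DESeq2 with the block, 1582 with only the control libraries and 1394 to 3078 without 1 library. For quiescence in knockdown cells it was 2279, with 4096 under the block, 4399 by DESeq2 with the block and 1186 to 2408 without 1 library. For the interaction it was 0 by edgeR (219 at an unadjusted p under 0.05), 6 by DESeq2 and 29 by DESeq2 with the block. The cause of these shifts was not tested, apart from the smaller number of libraries where some were left out.

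Changes of sign occurred only among uncalled values when 1 library was left out. Without 1 library the log2 fold change for knockdown in proliferating cells ran from -0.075 to 0.12 for Ccnd2, from -0.022 to 0.34 for Cdk2 and from -0.033 to 0.083 for Cdk4. For knockdown in quiescent cells it ran from -0.0029 to 0.30 for Cdk2 (0.024 to 0.30 with the block) and from -0.39 to 0.093 for Cdk6 (-0.45 to 0.046 with the block). The interaction ran from -0.22 to 0.37 for Ccne1, from -0.16 to 0.20 for Cdk2 and from -0.058 to 0.078 for Cdc25a. In edgeR the block changed no call of the 9 genes beyond those of Ccnd3 in the quiescence comparison in knockdown cells and the knockdown comparison in quiescent cells, and of Cdk4 in the former. In DESeq2 it changed those of Ccnd3 in the knockdown comparison in quiescent cells and of Cdk6 in quiescence in control cells.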
